A study of Mus musculus with 12 samples.

Results

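Livers of mice given doxorubicin with K27 (DOX + K27) were compared with livers of mice given doxorubicin alone (DOX), by RNA-seq of 3 libraries a group. These were 6 of the 12 libraries of the series, and the genes compared were the 3317 of 3799 listed genes whose mean over all 12 libraries reached 1 FPKM. The table names no unit, and its values were read as FPKM, which divides the fragments of a gene by transcript length and by library size. All mice were male C57BL/6J, aged 8 weeks. Both groups were injected intraperitoneally with doxorubicin at 10 mg/kg on day 0 and on day 7. Doxorubicin is an anthracycline that damages DNA, and the study used it to age mice prematurely. From day 2 on, every other day, the DOX mice got vehicle into the stomach and the DOX + K27 mice got K27 at 50 mg/kg, a compound known here by its code that came from a search for molecules that disperse aggregates of the glycolytic enzyme PKM2. Livers were collected on day 20. Mice given saline in place of doxorubicin (Saline) and mice given doxorubicin with 50 mg/kg of K35, of which the study calls K27 an analog (DOX + K35), 3 libraries each, entered the fit as further groups. The comparison asks which liver functions differ when K27 is given on top of doxorubicin.

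The listed genes were a selection made by the authors, who labelled them as differentially expressed by a rule not given in the sources used here. Every share below is therefore a share of that selection and not of the transcriptome. Adjusted p-values and the scaling below were also computed within these preselected genes, so they are not those of an unselected set. A gene list counts only its members that were in the selection and reached the filter. Library codes in the table are B1, B3 and B4 for DOX and D1, D2 and D3 for DOX + K27, while the sample labels give B1, B2 and B3, so B3 and B4 are treated as DOX libraries with no replicate number. Values are given below in the order DOX replicate 1, B3, B4 and DOX + K27 replicates 1, 2, 3. The labels number the replicates without saying that each came from a separate mouse, and p-values measure only the spread between these libraries. The summed FPKM ran from 267816 to 626437 over the 6 libraries, the read depth is unknown, and the table holds no counts. Transcripts of the mitochondrial genome took 62.2, 75.3 and 83.3% of the summed FPKM in the DOX libraries and 50.01, 53.7 and 68.0% in the DOX + K27 libraries, means of 73.6% ± 10.7 and 57.2% ± 9.49 (SD, n = 3). The ranges overlap, and the difference of −16.4 percentage points had an exact permutation p of 0.2 (two-sided), where 3 libraries against 3 cannot go below 0.1. DOX library B4 had the highest share and the lowest median-ratio size factor, 0.635 against 0.982 to 1.13 in the other 5, and it was the lowest DOX library for 34 of the 41 PPAR alpha targets described below. Most results are therefore given as deposited and after median-ratio scaling, which divides each library by its size factor. The medians of part of the gene lists are also given without B4. The 7 hepatocyte markers tested, among them *Trf* (transferrin) and *Cyp2e1*, summed to between 12002 and 22338 FPKM in DOX and between 21836 and 24157 FPKM in DOX + K27, and none was fully apart between the groups; albumin was not analysed here. In bulk liver, fewer cells of a type and less RNA per cell cannot be told apart.

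**Figure D1:**
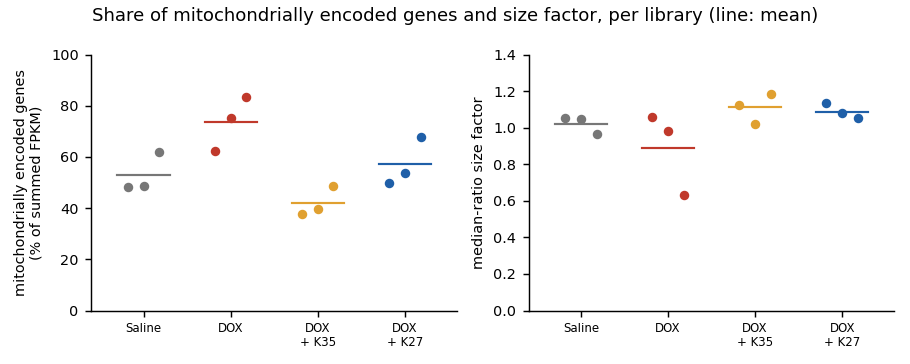
Share of the summed FPKM taken by the mitochondrially encoded genes (left, %) and median-ratio size factor (right) of each library; points are libraries in the order of their codes and lines are group means of 3 libraries. The DOX libraries lie between 62.2 and 83.3% and the DOX + K27 libraries between 50.01 and 68.0%, and the lowest size factor, 0.635, is that of DOX library B4.

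In 2 of the gene lists with 40 or more genes tested, nearly all tested members had higher values with K27 and most were fully apart from DOX. Smaller lists with that pattern follow further on. The first was the set of targets of PPAR alpha, the nuclear receptor that fatty acids activate in hepatocytes and that drives their uptake, activation and oxidation in mitochondria and peroxisomes, most strongly in fasting. The second was the set of interferon-stimulated genes, which cells induce on sensing interferon and whose products restrict viruses. Most genes of fatty acid synthesis, the opposite arm of lipid metabolism, had lower values with K27, but few of them were fully apart. Only *Acot3* and *Angptl4*, both PPAR alpha targets, rose past the threshold as deposited, a Benjamini-Hochberg adjusted p under 0.05 over 3317 genes in limma (0.0603% of genes). No gene passed after median-ratio scaling (0 genes, 0%). The count rested on single libraries. Without DOX replicate 1 there were 1097 genes past the threshold (1073 higher and 24 lower), without DOX + K27 replicate 3 there were 12, without the DOX + K35 library C4 there were 6, and without Saline replicate 3 or the DOX library B4 there was 1. Without any one of the other 7 libraries there were 0. At an unadjusted limma p under 0.05 there were 973 genes as deposited (29.3%) and 812 after scaling (24.5%), so most of what follows describes values that did not pass the adjusted test.

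A cruder measure was also used for all genes and lists, namely whether the 3 DOX + K27 libraries all lay above, or all below, the 3 DOX libraries. As deposited, 529 genes (15.9%) had every DOX + K27 library above and 89 (2.68%) every one below. After scaling these were 433 (13.1%) and 384 (11.6%), and 417 genes were above and 88 below in both. Both counts depended on single libraries: as deposited they were 542 (16.3%) above and 359 (10.8%) below without B4, 1623 and 167 without DOX replicate 1, and 1555 and 401 without DOX + K27 replicate 3. Over all genes the median log2 fold change came to 0.36 as deposited and 0.13 after scaling, and 71.6% and 55.5% of genes had a positive value. A list is read below against these background values.

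**Figure D2:**
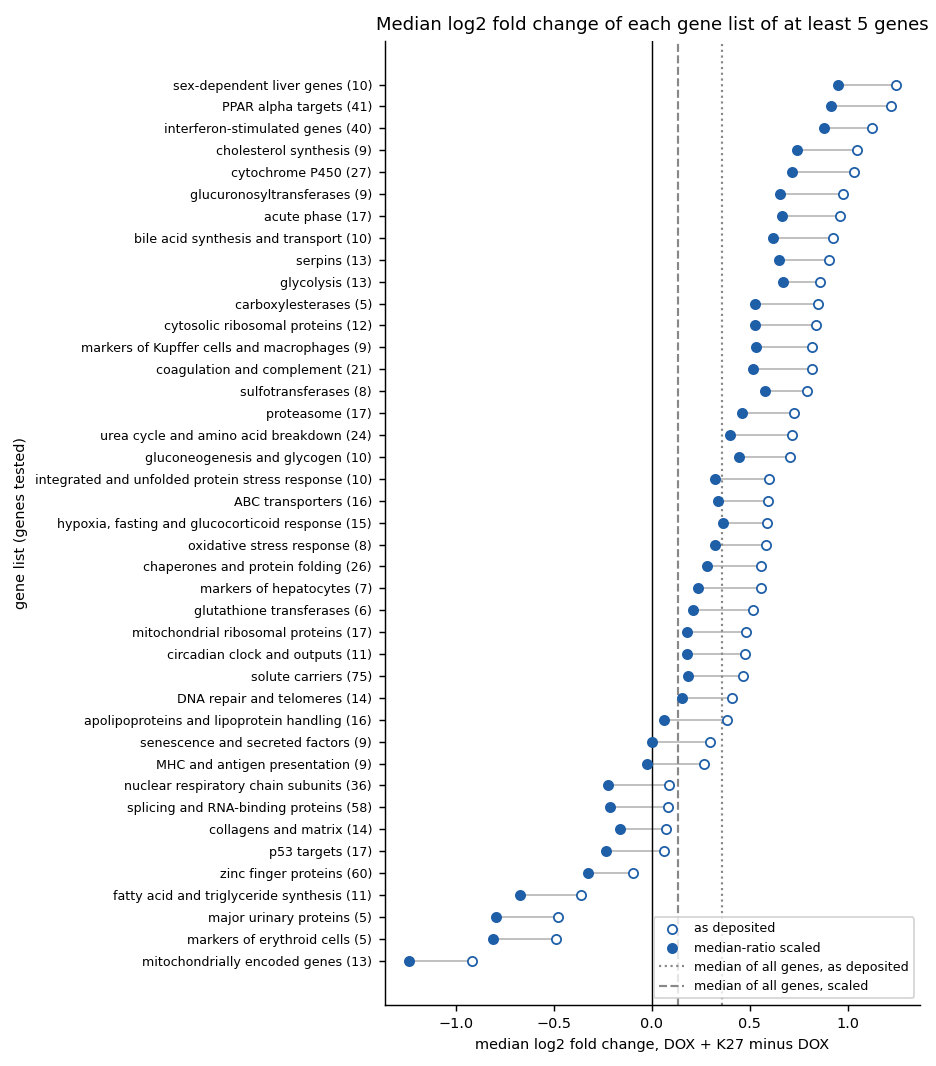
Median log2 fold change (DOX + K27 minus DOX, log2(FPKM + 1) scale) of each gene list with at least 5 genes tested, the number tested in brackets; open circles are values as deposited, filled circles values after median-ratio scaling, and the dotted and dashed lines are the medians of all genes, 0.36 and 0.13. PPAR alpha targets (1.22 and 0.91), interferon-stimulated genes (1.12 and 0.88) and sex-dependent liver genes (1.24 and 0.95) lie farthest to the right, and the mitochondrially encoded genes (−0.92 and −1.24) farthest to the left.

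The list as written held 57 PPAR alpha targets, and the 41 in the authors' selection were all tested. The members outside the selection have no values here. All 41 tested had a higher fitted level in DOX + K27 than in DOX, as deposited and after scaling. That held for 40 of them under every one of the 5 scalings tried. Every DOX + K27 library was above every DOX library for 34 of the 41 as deposited and for 32 after scaling. Among all genes these shares were 15.9% and 13.1%. The median log2 fold change of the list was 1.22 as deposited, 0.91 after scaling, 0.79 after quantile normalization and 0.80 without library B4, and without B4 all 41 were still higher. The list was written with earlier results of these data known, so its agreement in direction is a description.

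The acyl-CoA thioesterases, which release free fatty acids from coenzyme A, showed large differences. *Acot3* (ENSMUSG00000021228), a peroxisomal thioesterase, lies on chromosome 12 at 84052144 to 84060402 on the plus strand of GRCm38. It read 7.17, 6.64 and 5.102 FPKM in DOX and 52.5, 54.3 and 36.9 FPKM in DOX + K27. The DOX libraries were tightly grouped, no value of the 2 groups overlapped, and the Saline libraries spread from low to high at 48.5, 51.7 and 18.9 FPKM. It rose by 2.73 on the log2 scale (SE 0.44, limma, Benjamini-Hochberg adjusted p = 0.0368), higher in 3 of 3 libraries. After scaling the value was 2.44 with an adjusted p of 0.0845 by the same test. The annotated gene Gm49366 shares exons with *Acot3* on the same strand, so its level is uncertain.

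*Acot4*, the neighbouring peroxisomal thioesterase for succinyl-CoA and dicarboxylyl-CoAs, read 8.03, 10.7 and 9.83 FPKM in DOX against 23.6, 26.8 and 30.5 in DOX + K27. *Acot1*, the cytosolic member, read 2.64, 1.11 and 1.19 against 4.58, 19.1 and 10.3 FPKM, and *Acot2*, the mitochondrial one, 1.899, 0.5296 and 0.973 against 2.99, 6.13 and 3.48 FPKM. None of the 3 passed the adjusted test, with log2 fold changes of 1.41, 2.08 and 1.29 as deposited and 1.11, 1.86 and 1.09 after scaling, but no DOX + K27 library of any of them reached down to the DOX libraries. These genes are near-identical in places, and reads could have been split between them.

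*Angptl4* (ENSMUSG00000002289), a secreted inhibitor of lipoprotein lipase, lies on chromosome 17 at 33773750 to 33781830 on the minus strand. It read 15.9, 10.7 and 21.2 FPKM in DOX, 51.7, 82.3 and 58.8 in DOX + K27 and 58.1, 48.3 and 47.4 in Saline. Here B4 was the highest of the DOX libraries, and the 2 groups stayed well apart. It rose by 1.97 on the log2 scale (SE 0.32, limma, Benjamini-Hochberg adjusted p = 0.0368), higher in 3 of 3 libraries, and the scaled value was 1.66 with an adjusted p of 0.137. Leaving out each of the 12 libraries in turn ended the call of *Acot3* in 8 fits and that of *Angptl4* in 8, while the log2 fold changes stayed between 2.61 and 2.91 for *Acot3* and between 1.72 and 2.19 for *Angptl4*.

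Lipid droplet and peroxisome genes followed the same order. *Plin2*, the coat protein of lipid droplets, read 76.6, 38.4 and 15.8 FPKM in DOX and 106, 256 and 91.8 in DOX + K27, with a log2 fold change of 1.88 as deposited, 1.57 after scaling and 1.30 without B4. *Pex11a*, which drives division of peroxisomes, read 13.3, 10.8 and 11.4 against 21.7, 29.3 and 33.1 FPKM, and here the 3 DOX libraries were within a narrow range that did not follow the mitochondrial share. *Eci2*, an enoyl-CoA isomerase, read 66.7, 37.2 and 31.3 against 110.4, 134 and 104 FPKM (1.41 and, scaled, 1.10).

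The microsomal fatty acid omega-hydroxylases of the Cyp4a family were higher with K27 as a group. *Cyp4a14* read 59.5, 33.1 and 10.01 FPKM in DOX and 116, 230.3 and 119 in DOX + K27, a log2 fold change of 2.38 that was 2.08 after scaling and 1.70 without B4. *Cyp4a10*, *Cyp4a31* and *Cyp4a32* had log2 fold changes of 1.57, 1.47 and 1.67, each with no overlap between the groups. The sequences of this family are close, so the split between its members is uncertain.

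Genes of mitochondrial beta-oxidation included some whose groups overlapped. *Cpt1a*, which makes the acylcarnitines that enter mitochondria, read 37.6, 26.5 and 23.00 FPKM against 66.4, 79.5 and 56.8, and *Slc25a20*, the carrier that brings them in, 35.8, 24.97 and 12.6 against 50.3, 61.7 and 43.1 FPKM. *Hadha*, the large subunit of the trifunctional protein, read 29.5, 12.2 and 5.59 against 47.5, 52.4 and 26.2 FPKM, and DOX + K27 replicate 3 lay below DOX replicate 1. In these genes the DOX libraries were ordered against their mitochondrial shares of 62.2, 75.3 and 83.3%, and DOX + K27 replicate 3, with the highest share of its group, was its lowest library. The part of that share in these differences was not tested. On the log2(FPKM + 1) scale the smallest differences as deposited were those of *Pdk4*, the kinase that holds back pyruvate oxidation, and of *Slc25a42*, a coenzyme A carrier. *Pdk4* read 0.417, 0.708 and 0.5600 against 0.7205, 1.83 and 1.05 FPKM, with a log2 fold change of 0.47. Adding 1 to values this low understates the fold change, which ran from 0.26 to 0.91 over the settings tried, so its place in this ranking depends on that scale. *Slc25a42* read 18.95, 17.6 and 16.3 against 21.7, 24.4 and 29.9 FPKM. Its log2 fold change was 0.49 as deposited, 0.18 scaled and −0.03 after quantile normalization.

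**Figure D3:**
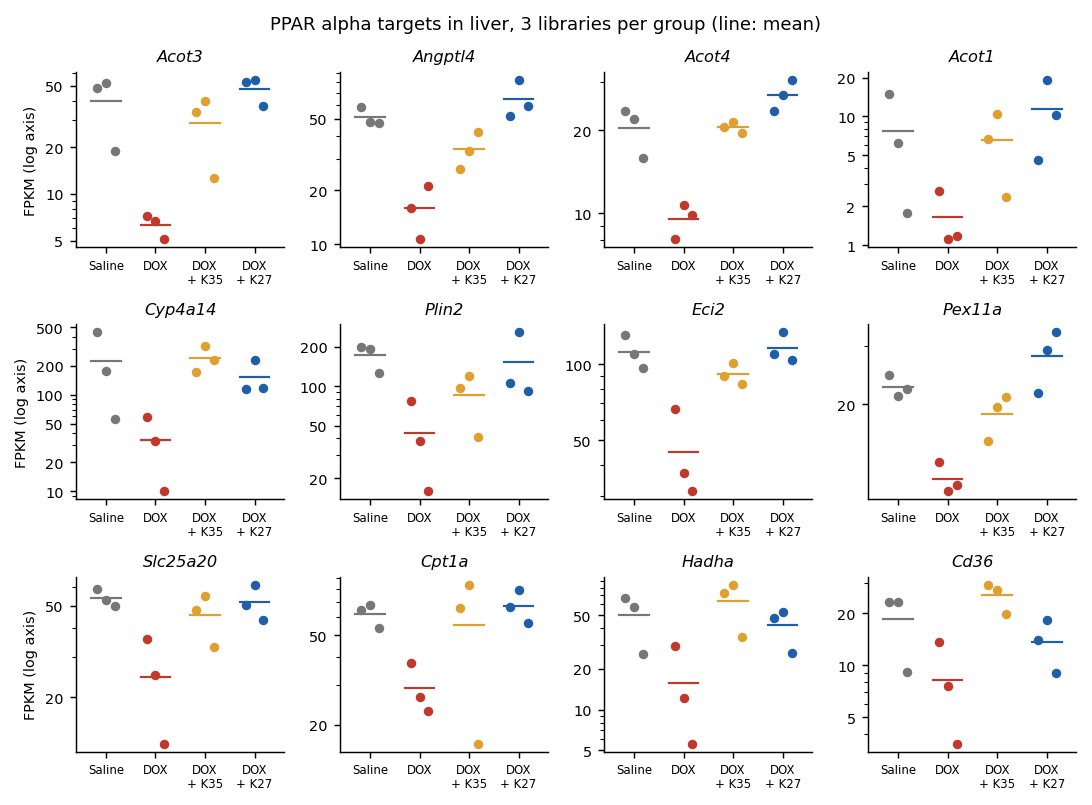
FPKM (log axis) of 12 PPAR alpha targets in the 4 groups; each point is a library, in the order of the codes, and lines are group means of 3 libraries. For *Acot3*, *Acot4* and *Pex11a* the 3 DOX libraries sit close together under every DOX + K27 library. For *Angptl4* they spread more widely but also lie under every DOX + K27 library, whereas for *Hadha* and *Cd36* the ranges of DOX and DOX + K27 overlap.

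Compared with the other groups, the targets in DOX + K27 were near Saline and near DOX + K35. The median log2 difference over the 41 targets was 0.01 for DOX + K27 minus Saline and 0.08 for DOX + K27 minus DOX + K35, and none of the 41 passed the adjusted limma test in either contrast. For *Angptl4* the difference from DOX + K35, given at the same dose and schedule, was 0.90 (Benjamini-Hochberg adjusted p = 0.118 in limma, 95% interval 0.21 to 1.58), with 26.4, 33.1 and 42.5 FPKM in the DOX + K35 libraries. For *Acot3* the difference was 0.85 (adjusted p = 0.198, same test, 95% interval −0.09 to 1.78). The intervals are unadjusted, and a p above the threshold does not show that the compounds act alike.

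The 250 bases before the annotated start were read from RefSeq promoters (GRCm38.p6), available for 32 of the 41 targets, 34 promoters in all. They were searched on both strands for AGGTCA, the hexamer that nuclear receptors such as PPAR alpha bind, for 2 copies of AGGNCA spaced by 1 base, and for CACGTG, the E-box of clock factors. The single hexamer occurred in 7 of the 34 (20.6%) against 14.0% of all 32851 promoters, and the pair in 0 of 34 against 0.338%. The 2 promoters shown belong to targets described above and hold the hexamer, which reads TGACCT here because it lies on the opposite strand. Capitals mark it and the E-box. That of *Acot4* (chr12:84038129-84038378, plus strand) holds it 13 bases before the start and the E-box 66 bases before it, while that of *Plin2* (chr4:86670060-86670309, minus strand) holds it 218 bases before the start. A match describes letters and is not evidence of binding. The promoter of *Acot3* (chr12:84051894-84052143, plus strand) held none of the 3, and *Angptl4* had no entry.
Acot4: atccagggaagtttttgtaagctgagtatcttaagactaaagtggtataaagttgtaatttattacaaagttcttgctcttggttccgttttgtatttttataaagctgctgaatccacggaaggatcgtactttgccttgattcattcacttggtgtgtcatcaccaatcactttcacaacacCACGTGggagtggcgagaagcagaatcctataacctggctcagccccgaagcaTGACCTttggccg
Plin2: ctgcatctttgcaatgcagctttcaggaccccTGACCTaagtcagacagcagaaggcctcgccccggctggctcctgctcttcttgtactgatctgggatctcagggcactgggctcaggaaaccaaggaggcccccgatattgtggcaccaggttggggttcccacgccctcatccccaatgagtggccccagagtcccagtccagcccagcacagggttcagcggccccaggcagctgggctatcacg

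Interferon-stimulated genes made up the other group. The list as written held 56 genes, of which 41 were in the authors' selection and 40 were tested. As deposited, 40 of the 40 tested had a higher level in DOX + K27. For 33 of them every DOX + K27 library lay above every DOX library, against 15.9% of all genes. After scaling these counts were 39 and 26, where 13.1% of all genes lay fully above. The exception was *Stat2*, a signalling component, with 23.4, 33.8 and 18.7 FPKM in DOX and 23.7, 28.6 and 27.7 in DOX + K27 and a log2 fold change of 0.11 as deposited and −0.20 scaled. The median log2 fold change of the list was 1.12 as deposited, 0.88 scaled, 0.81 after quantile normalization and 0.91 without B4. None passed the adjusted test against DOX (0 genes in limma, 30 with an unadjusted p under 0.05, against 29.3% of all genes).

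Among the effectors, *Ifit1*, which binds viral RNA that lacks the host cap, read 2.58, 2.83 and 2.47 FPKM in DOX and 12.8, 25.3 and 4.64 in DOX + K27. Its log2 fold change was 1.81 (SE 0.55), and 1.54 scaled. *Ifit3b*, of the same family, read 1.59, 1.44 and 0.594 against 9.41, 10.4 and 2.56 FPKM, with reads that could be shared with *Ifit3*. *Mx1* and *Mx2*, dynamin-like antiviral GTPases, read 1.54, 1.79 and 1.29 against 3.701, 3.49 and 2.196 and 3.22, 3.31 and 2.89 against 6.52, 14.6 and 6.13 FPKM. No DOX value reached the DOX + K27 values in these genes. Over the list, replicate 3 was the lowest DOX + K27 library for 38 of the 40, and B4 the lowest DOX library for 37. Both libraries had the highest mitochondrial share of their group, and the part of that share in these differences was not tested. *Ddx60*, a helicase of RNA sensing, had the smallest p of the list, with 0.994, 1.13 and 0.833 FPKM in DOX and 3.49, 3.48 and 1.87 in DOX + K27, a log2 fold change of 0.96 (SE 0.20, limma, Benjamini-Hochberg adjusted p = 0.106).

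The modifiers and regulators showed the same pattern. *Isg15*, a ubiquitin-like modifier, read 18.6, 24.01 and 13.7 FPKM in DOX and 50.3, 79.4 and 24.8 in DOX + K27, and *Usp18*, the protease that removes it and dampens the receptor, 9.26, 6.52 and 4.24 against 31.2, 40.5 and 10.2 FPKM. *Irf7*, the factor that amplifies interferon production, read 24.6, 20.8 and 13.04 against 77.01, 60.8 and 26.5, and *Cxcl10*, a chemokine for T cells, 3.75, 3.96 and 2.02 against 11.3, 12.8 and 4.71 FPKM. The groups did not overlap for any of these 4 as deposited, and for *Isg15* they did after scaling.

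Values were also set against the other compound. Against DOX + K35 at the same dose and times, 40 of 40 were higher with K27, the median log2 difference was 1.25, and 10 rose above DOX + K35 past the threshold (adjusted p under 0.05 in limma), where 56 of all genes did so (1.69%). The 10 were *Isg15*, *Oas1b*, *Oas1g*, *Oas2*, *Oasl2*, *Mx1*, *Mx2*, *Ddx60*, *Xaf1* and *Trim30a*, among them the oligoadenylate synthetases that activate RNase L. For *Mx1* the DOX + K35 libraries read 0.523, 0.383 and 0.108 FPKM, the log2 difference was 1.62 and the Benjamini-Hochberg adjusted p 0.00544 in limma. DOX + K35 library C4 was the lowest of the 12 for 30 of the 40, and without it the same 10 genes passed where 140 of all genes did so (4.22%), the median difference was 0.99 and 37 of 40 were higher. After median-ratio scaling 16 passed, including the same 10, where 132 of all genes did so (3.98%).

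Against Saline the median difference of the list was 0.82, and 1 of the 40 passed, *Mx1*, with 0.349, 0.373 and 1.28 FPKM in Saline and a log2 difference of 1.33 (Benjamini-Hochberg adjusted p = 0.0289 in limma). In that contrast 4 of all genes passed (0.121%), each higher in DOX + K27. The other 3 were *Slfn4*, a myeloid gene that interferon induces, *Phlda3*, a p53 target that inhibits Akt, and *Gria3*, a glutamate receptor subunit. *Slfn4* read 0.458, 0.7295 and 1.59 FPKM in Saline, 0.9699, 2.69 and 1.76 in DOX and 6.701, 7.17 and 3.12 in DOX + K27, and every DOX + K27 library lay above the others. *Phlda3* read 5.83, 4.604 and 1.59 FPKM in DOX and 7.91, 5.38 and 5.78 in DOX + K27, and *Gria3* 2.02, 2.18 and 2.05 and 1.92, 1.01 and 1.76, both above Saline with and without the compound.

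Macrophages carry many of these genes, so their markers were read beside them. The 9 markers of Kupffer cells and macrophages were higher in 9 of 9, with 4 apart as deposited and 3 scaled (median 0.82 and 0.53, and 0.46 without B4). Of all genes, 15.9% and 13.1% were apart above. The figures that follow are for these markers. The summed level of the 9 markers ran from 32.3 to 82.2 FPKM in DOX, from 82.6 to 140.9 in DOX + K27 and from 109.4 to 286.5 in Saline. *Cd5l*, a scavenger protein of Kupffer cells, read 10.3, 8.29 and 4.23 FPKM in DOX and 26.9, 15.2 and 11.9 in DOX + K27. *Clec4f*, which defines Kupffer cells, was not analysed here, and the part of macrophage number in the interferon genes was not tested. Of the neutrophil, lymphocyte and bile duct markers 1, 2 and 1 were tested, none of them apart.

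**Figure D4:**
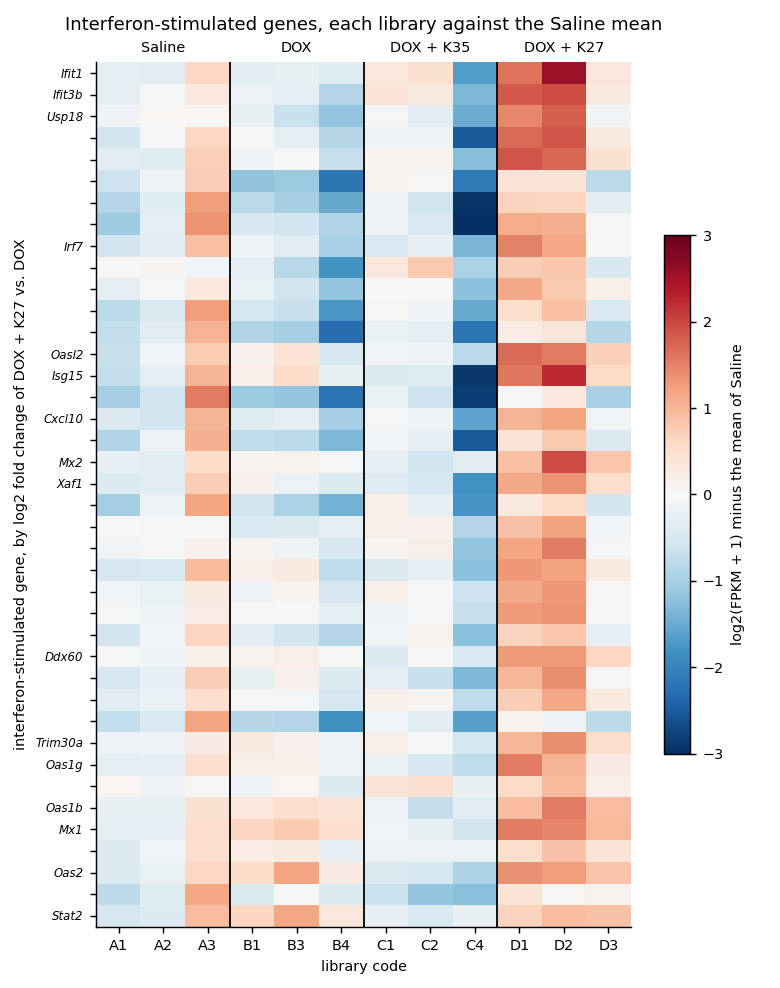
Log2(FPKM + 1) of the 40 interferon-stimulated genes tested minus the mean of the 3 Saline libraries, one column per library and one row per gene (labelled for the genes described in the text), sorted by the log2 fold change of DOX + K27 vs. DOX; red is above and blue below Saline. DOX + K27 replicates 1 and 2 (D1, D2) are red in most rows, replicate 3 (D3) is paler, and DOX + K35 library C4 is blue in most rows.

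The interferon element, 2 copies of GAAA spaced by 2 bases and the core that interferon regulatory factors bind, was counted in the same 250-base windows after the values had been seen. It was found in 16 of the 30 promoters of 27 listed genes (53.3%), against 2.98% of all 32851 promoters, which describes how such genes are built and not these samples. The promoters of *Ifit1* (chr19:34640639-34640888, plus strand), *Isg15* (chr4:156200819-156201068, minus strand) and *Ddx60* (chr8:61927837-61928086, plus strand) are shown as examples of the listed genes with more than 1 copy of the element. Capitals mark the element on either strand, and in *Isg15* overlapping matches run together. It lay 104 and 85 bases before the start of *Ifit1*, 78, 72 and 66 before that of *Isg15*, and 53 and 19 before that of *Ddx60*.
Ifit1: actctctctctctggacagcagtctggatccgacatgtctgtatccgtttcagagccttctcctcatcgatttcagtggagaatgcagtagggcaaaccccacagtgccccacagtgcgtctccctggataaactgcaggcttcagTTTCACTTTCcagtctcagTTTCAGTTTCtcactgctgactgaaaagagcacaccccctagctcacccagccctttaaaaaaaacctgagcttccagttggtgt
Isg15: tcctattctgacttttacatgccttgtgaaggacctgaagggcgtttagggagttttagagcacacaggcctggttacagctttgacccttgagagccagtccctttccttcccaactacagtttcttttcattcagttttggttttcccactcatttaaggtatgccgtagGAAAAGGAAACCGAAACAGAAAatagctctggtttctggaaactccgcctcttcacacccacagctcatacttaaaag
Ddx60: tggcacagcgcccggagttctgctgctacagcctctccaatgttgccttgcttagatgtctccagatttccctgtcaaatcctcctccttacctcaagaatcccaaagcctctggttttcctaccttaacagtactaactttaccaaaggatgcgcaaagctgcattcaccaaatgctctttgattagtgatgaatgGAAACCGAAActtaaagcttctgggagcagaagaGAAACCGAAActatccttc

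Fatty acid and triglyceride synthesis had lower values. Of 11 genes tested, 9 were lower in DOX + K27 under every one of the 5 scalings, and the median log2 fold change was −0.36 as deposited, −0.67 scaled and −0.38 without B4. The groups were fully apart for 1 gene on the lower side as deposited and for 2 after scaling, where 2.68% and 11.6% of all genes were. None passed the adjusted test (0 genes in limma). An unadjusted limma p under 0.05 was found for 1 as deposited and 3 after scaling, against 29.3% and 24.5% of all genes. With 11 genes these counts are no result about the list. The largest was *Pnpla3*, a lipid droplet hydrolase induced by carbohydrate feeding, on chromosome 15 at 84167837 to 84187236. It read 7.54, 18.6 and 9.07 FPKM in DOX and 3.47, 1.02 and 1.64 in DOX + K27, near the 2.74, 3.74 and 0.519 of Saline. Its log2 fold change was −2.05 (SE 0.44, limma, Benjamini-Hochberg adjusted p = 0.106) and −2.31 scaled (adjusted p = 0.0984). Gm49513 shares exons with it on the same strand.

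*Srebf1*, the transcription factor that switches on lipogenic enzymes in response to insulin, read 176, 129.9 and 48.6 FPKM in DOX and 65.3, 51.5 and 53.8 in DOX + K27. The DOX + K27 libraries were close to one another and B4 alone of the DOX libraries was as low. The log2 fold change was −0.86 as deposited, −1.18 scaled, −1.40 without B4 and −0.49 without DOX replicate 1. *Fasn*, fatty acid synthase, had the same shape, with 227, 175 and 36.6 against 86.6, 55.9 and 48.7 FPKM and log2 fold changes of −0.87, −1.18, −1.67 and −0.37 in the same order. *Acly*, which supplies cytosolic acetyl-CoA, read 68.6, 90.9 and 34.2 against 68.3, 34.3 and 18.2 FPKM with overlapping groups. *Fads2*, a desaturase of polyunsaturated fatty acids, was the exception that lay fully higher, with 78.2, 58.9 and 35.6 against 137, 170.0 and 95.5 FPKM.

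**Figure D5:**
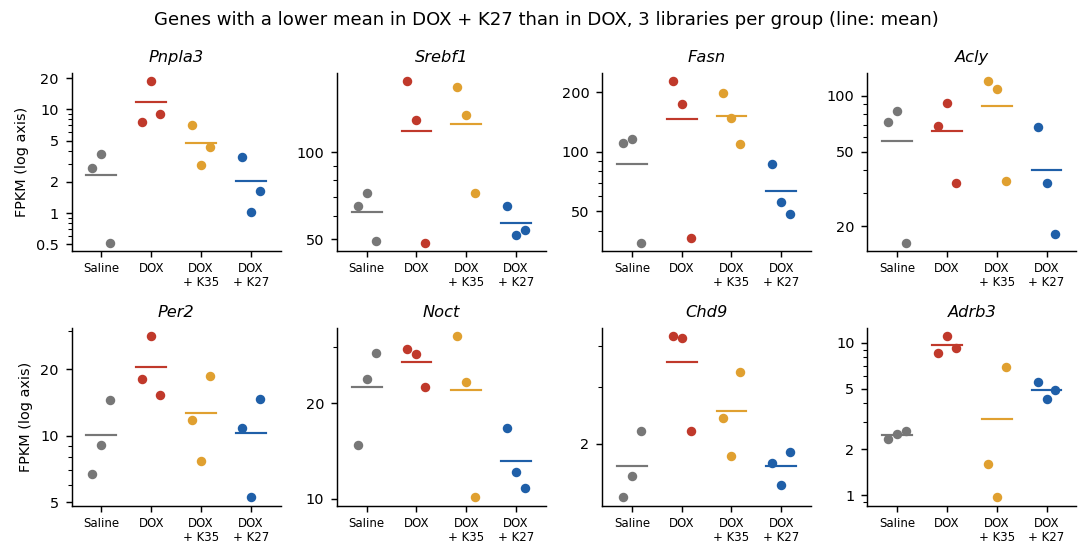
FPKM (log axis) of 8 genes with a lower mean in DOX + K27 than in DOX, in the 4 groups; each point is a library, in the order of the codes, and lines are group means of 3 libraries. *Pnpla3*, *Per2*, *Noct*, *Chd9* and *Adrb3* have every DOX + K27 library under every DOX library, and for *Srebf1* and *Fasn* the third DOX point, library B4, lies among or under the DOX + K27 libraries.

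Sterol genes did not share that direction. All 9 cholesterol synthesis genes tested were higher in DOX + K27 under every scaling, with a median log2 fold change of 1.05 as deposited, 0.74 scaled and 0.72 without B4. The groups were fully apart for 5 of the 9 as deposited and for 4 scaled, where 15.9% and 13.1% of all genes were apart above. None passed the adjusted test (0 genes in limma, 5 with an unadjusted p under 0.05, against 29.3% of all genes). *Fdft1*, squalene synthase, read 58.6, 39.7 and 13.02 FPKM in DOX and 72.2, 87.6 and 81.8 in DOX + K27, and *Msmo1*, a sterol demethylating oxidase, 85.7, 63.3 and 26.4 against 108, 140.2 and 132 FPKM. *Srebf2*, the factor that controls this pathway, read 10.9, 7.02 and 4.43 against 10.9, 13.7 and 14.8 FPKM with groups that overlapped narrowly. Of 10 genes of bile acid synthesis and transport, 9 were higher and 4 were apart as deposited (median 0.92, scaled 0.62). After scaling 3 were apart, and the same shares of all genes apply. *Abcb4*, the canalicular phospholipid exporter, read 36.4, 26.5 and 18.02 against 46.8, 63.6 and 55.5 FPKM, while *Cyp7a1*, the rate-limiting enzyme, read 79.1, 82.5 and 61.2 against 92.4, 70.00 and 154 FPKM and did not separate.

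In the list of genes of hypoxia, fasting and glucocorticoid response, 11 of 15 were higher and 8 were apart above as deposited, with a median of 0.59. After scaling 10 were higher, 5 apart above and 1 below, with a median of 0.36. Of all genes, 15.9% were apart above as deposited, and 13.1% above and 11.6% below after scaling. Among the 15 only *Angptl4*, given above, passed the adjusted limma test as deposited, and no gene described next did so. *Angptl4*, *Pdk4* and *Fgf21* of this list are also counted among the PPAR alpha targets. *Fkbp5*, a co-chaperone induced by glucocorticoid, read 4.68, 2.29 and 2.42 FPKM in DOX and 10.7, 10.5 and 16.8 in DOX + K27, above the 6.36, 6.46 and 6.21 of Saline. *Klf9*, a repressor that glucocorticoid induces, read 3.66, 2.17 and 1.46 against 6.62, 8.55 and 4.62 FPKM. Their log2 fold changes were 1.74 and 1.16, and 1.48 and 0.93 scaled, with the groups apart on both scales. *Per2*, a clock repressor, was lower, with 18.1, 28.3 and 15.4 FPKM in DOX and 10.9, 5.25 and 14.7 in DOX + K27 (−0.99 and −1.29). *Noct*, a rhythmic phosphatase of nicotinamide dinucleotides, was lower too, at 29.7, 28.6 and 22.5 against 16.7, 12.1 and 10.8 FPKM, whereas *Nr1d1*, the repressor REV-ERB alpha, was higher, at 40.6, 25.7 and 23.1 against 55.1, 67.2 and 63.1 FPKM. Exons of *Nr1d1* overlap *Thra* on the other strand, and the strand used in counting is not given in the sources used here. The time of day of collection is not given either. Over the list of 11 clock genes and outputs, 8 were higher, 5 were apart above and 1 below as deposited, with a median of 0.47 and 0.18 scaled. After scaling 3 were apart above and 1 below, to be read against the shares of all genes given above.

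The 10 sex-dependent liver genes tested had a median log2 fold change of 1.24 (0.95 scaled, 0.69 without B4), all on the higher side under every scaling. Apart above were 4 as deposited and 5 scaled, against 15.9% and 13.1% of all genes. The 10 do not share 1 sex bias, and the only one called as deposited was *Acot3*, counted above as a PPAR alpha target. *Cux2*, a repressor that is female-biased in mouse liver, read 3.37, 1.75 and 4.87 FPKM in DOX and 14.5, 8.49 and 23.00 in DOX + K27, although all mice were male, and *Socs2*, a growth hormone-induced inhibitor of its receptor, read 8.98, 5.39 and 5.79 against 25.2, 23.3 and 14.5 FPKM. Their log2 fold changes were 1.88 and 1.50 (Benjamini-Hochberg adjusted p = 0.115 and 0.106 in limma). The major urinary proteins, which growth hormone pulses induce in males, were on the lower side in 5 of 5 genes, with a median of −0.48 as deposited and −0.79 scaled. The groups overlapped for each as deposited, and 1 of the 5 was apart below after scaling, where 11.6% of all genes were. The 5 erythroid markers, led by the globin genes, were lower in 5 of 5 as well (median −0.49, and −0.81 scaled). Their groups overlapped as deposited, and 1 marker was apart below after scaling.

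Most other lists of hepatocyte functions had higher medians with K27, with overlap for many genes. The median of all genes was also higher, at 0.36 as deposited and 0.13 scaled. Apolipoproteins and lipoprotein handling had 8 genes higher and 8 lower after scaling (median 0.38, scaled 0.06). Of 6 glutathione transferases 0 were apart (median 0.52, scaled 0.21). Of 8 sulfotransferases 0 were apart above and 1 below (median 0.79, scaled 0.58). Of 27 cytochrome P450 genes tested, 25 were higher and 13 apart above as deposited (24 and 11 scaled), the median being 1.03, 0.72 scaled and 0.67 without B4. The shares of all genes apart above were 15.9% and 13.1%. *Cyp4a10*, *Cyp4a14*, *Cyp4a31* and *Cyp4a32*, counted above as PPAR alpha targets, are among these 27. *Cyp2c69* read 337, 145 and 72.7 FPKM in DOX and 449, 605 and 490.5 in DOX + K27, and *Cyp2e1*, which oxidizes ethanol and paracetamol, 2353, 1227 and 381 against 3217, 3614 and 1935. The single one lower and apart was *Cyp2j9*, at 8.65, 12.1 and 9.43 against 5.504, 5.11 and 5.38 FPKM. *Por*, the reductase that feeds electrons to all of them, read 115, 86.6 and 63.3 against 209, 174 and 182 FPKM, with no overlap and a log2 fold change of 1.12 (0.80 scaled, 0.91 without B4).

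Plasma proteins and nitrogen metabolism had the same sign with fewer genes apart. Coagulation and complement genes were higher in 20 of 21 and apart in 5 (median 0.82, scaled 0.51, without B4 0.40). Urea cycle and amino acid genes were higher in 24 of 24 and apart in 3 (median 0.71, scaled 0.40, without B4 0.35). *Fgg*, the fibrinogen gamma chain, read 1249, 569 and 233 FPKM in DOX and 1619, 1747 and 967 in DOX + K27, where replicate 3 lay inside the DOX range. Proteasome subunits were higher in 17 of 17 and apart in 3 (median 0.73, scaled 0.46, without B4 0.38). Glycolytic enzymes, the pathway of the compound's intended target, were higher in 11 of 13 and apart in 2 as deposited and 1 scaled, with a median of 0.86, 0.67 scaled and 0.41 without B4. *Ldha*, lactate dehydrogenase A, read 179, 84.8 and 18.1 against 241, 381 and 177 FPKM and overlapped by a narrow margin. Pkm was not analysed here. The shares of these 4 lists that were apart were near that of all genes, 15.9%, and are no result about the lists.

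In the respiratory chain, the genes of the mitochondrial genome and those of the nucleus had medians of opposite sign as deposited. All 13 mitochondrially encoded genes were lower in DOX + K27 as deposited and after median-ratio scaling, and no gene was apart. Their median was −0.92 as deposited, −1.24 scaled and −0.53 without B4. *mt-Co1*, a cytochrome c oxidase subunit, read 50050.0, 77628 and 129662 FPKM in DOX and 32853, 34816 and 60797 in DOX + K27. Quantile normalization, which gives the top ranks the same value in every library, left a median of 0.00. The 36 nuclear subunits had a median of 0.09 as deposited, −0.22 scaled and −0.08 without B4, so their direction depended on the scaling and on that library. With scaling the median also flipped for splicing factors (58 genes, 0.08 and −0.21), p53 targets (17, 0.06 and −0.23), collagens and matrix (14, 0.07 and −0.16) and MHC genes (9, 0.26 and −0.03). Zinc finger genes were below the median of all genes on both scales (60 genes, −0.10 and −0.33), and 6 of them were apart on the lower side as deposited and 23 scaled, against 2.68% and 11.6% of all genes.

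Markers of senescence did not separate the groups as a list, with 9 genes tested and a median of 0.30 as deposited, 0.00 scaled and −0.01 without B4. *Cdkn1a*, which encodes the cell cycle inhibitor p21, read 4.19, 3.51 and 1.98 FPKM in DOX and 7.04, 5.75 and 3.51 in DOX + K27, and 0.786, 0.674 and 0.958 in Saline. Its log2 fold change was 0.60 (SE 0.38) with overlapping groups. *Il1b* read 2.42, 2.33 and 2.13 against 2.304, 1.23 and 1.75 FPKM and *Gdf15*, a stress cytokine, 6.26, 5.04 and 3.605 against 6.88, 6.49 and 10.9 FPKM. *Gdf15* was higher in every DOX + K27 library, and *Il1b* was lower in each on the scaled values. *Cdkn2a*, *Il6* and *Tnf* were not analysed here.

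A few further genes were lower with K27 on both scales. *Adrb3*, a beta-adrenergic receptor, read 8.49, 11.03 and 9.22 FPKM in DOX, 5.48, 4.300 and 4.92 in DOX + K27 and 2.33, 2.51 and 2.65 in Saline. *Chd9*, a chromatin remodeller, read 4.29, 4.24 and 2.19 against 1.74, 1.49 and 1.88 FPKM. *Chrna4*, a nicotinic receptor subunit, read 7.53, 17.9 and 19.5 against 6.03, 0.907 and 2.73, and *Hcn3*, a pacemaker channel, 14.3, 14.5 and 8.03 against 7.42, 2.14 and 3.81 FPKM. Exons of *Hcn3* overlap *Pklr*, which encodes liver pyruvate kinase, on the other strand, so without known strand handling its value is uncertain. On the higher side, *Slc16a5*, a monocarboxylate transporter, read 7.85, 4.53 and 4.07 against 18.9, 17.4 and 15.5 FPKM, with a log2 fold change of 1.53 and a Benjamini-Hochberg adjusted p of 0.0924 in limma.

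*Nnt*, the mitochondrial transhydrogenase, was listed at 0 in the 3 DOX libraries and at 4.24, 10.4 and 1.36 FPKM in DOX + K27. It was 10.3, 3.33 and 0 FPKM in Saline and 2.96, 5.000 and 0.306 in DOX + K35. C57BL/6J mice are known to carry a deletion in this gene, a second gene model of the same name overlaps it, and no fold is given against a group listed at 0.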

How the data were processed

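Liver mRNA selected by poly-T was sequenced on an Illumina NovaSeq instrument; the submitters' processing notes name HISAT2, DESeq2, edgeR and GRCm38, and how they were combined is not given in the sources used here. The authors deposited a table of 3799 genes that gives 1 expression value per library, with no unit in its header. The deposited values are read here as FPKM made by the authors, since they are not whole numbers and sum differently in each library. No source names the unit, and TPM would differ by 1 factor per library, which median-ratio scaling removes. The table's columns of fold changes and p-values, which hold the authors' own comparisons, were not used. The table holds 280 newly assembled transcripts, 188 of them among the 3317 genes tested, and 3519 Ensembl identifiers, all found in GENCODE M21 (GRCm38), from which positions and exon overlaps were taken. No value column was left unmapped (0 columns). Depth is unknown, since no counts are given.

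Values were taken to log2(FPKM + 1), so fold changes of low genes are understated, and genes whose mean over the 12 libraries reached 1 FPKM were kept. A model with the 4 groups was fitted with limma 3.58.1 (R 4.3.3), with moderated variances and a trend, and p-values were adjusted by the Benjamini-Hochberg method over all 3317 genes, a value under 0.05 being called. Median-ratio scaling used the 3786 genes above 0 in every library. The fit was tested on simulated data. Values were also computed after quantile normalization, without the 20 highest genes, without mitochondrially encoded genes, with a pseudocount of 0.1, without a filter, with other thresholds and spreads, and without each library. Promoter sequences came from RefSeq (GRCm38.p6), with 250 bases before the start and the 50 after it left out. Scripts ran in Python 3.11.15 with scipy 1.17.1 and matplotlib 3.10.9.

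The genes, gene lists and comparisons were chosen with earlier results of these data known. The genes named were the called genes, the 10 largest differences in each direction after scaling among named genes whose libraries did not overlap on either scale, and up to 4 members of each list with the largest values. Others were list members, or genes called in another contrast, chosen after their values were seen. Some genes the rule names are not reported here.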

Additional observations from a re-analysis of the deposited data

How the results depend on the processing

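The number of genes past the threshold was 2 as deposited and became 0 after median-ratio scaling, 5 after quantile normalization (1 higher), 7 without the 20 highest genes (1 higher), 0 without the mitochondrially encoded genes, 7 when only DOX and DOX + K27 were fitted (6 higher) and 0 at an adjusted p under 0.01. Leaving out single libraries gave between 0 and 1097 genes, the highest without DOX replicate 1. After median-ratio scaling the count of 0 became 2 with no filter, 5 with only DOX and DOX + K27 fitted, and between 0 and 12 without single libraries, the highest without DOX + K35 library C4, with 4 without Saline replicate 3. The cause of these changes was not tested. The replicate numbers were not taken to pair the samples: the deviations of DOX and DOX + K27 replicate 1 had r = 0.461 and those of the libraries coded B3 and D3 r = 0.0855. The other pairs ran from r = −0.679 (B1 with D3) to r = 0.63 (B4 with D3). A fit with the replicate block called 3 genes as deposited and 2 scaled, against 2 and 9 in the same libraries without it.

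Genes with every DOX + K27 library above every DOX library numbered between 542 and 1623 as deposited when single libraries were left out (604 without DOX + K27 replicate 1), and between 461 and 1372 scaled. Those with every one below numbered between 98 and 401, and scaled between 400.0 and 992. Without DOX replicate 1 the scaled counts were 1319 above and 797 below, and without B4 there were 359 below as deposited. The 89 such genes as deposited became 384 after median-ratio scaling, 411 after quantile normalization, 426 without the 20 highest genes, 192 without the mitochondrially encoded genes and 148 with no filter. These alternatives for libraries that did not overlap were chosen after seeing the data. The highest counts came without DOX replicate 1 or without DOX + K27 replicate 3. The difference in mitochondrial share ran from −22.1 to −11.5 percentage points without single libraries.

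Log2 fold changes of named genes kept their sign under all alternatives, with 4 exceptions. *Stat2* was −0.20 after median-ratio scaling, −0.40 after quantile normalization, −0.36 without the 20 highest genes, −0.093 without the mitochondrially encoded genes and −0.079 without B4. *Cyp7a1* was −0.15 after quantile normalization and −0.045 without the 20 highest genes, *Slc25a42* was −0.034 after quantile normalization, and *mt-Co1* was 0 after quantile normalization. Read depth and library-level counts are unknown, so no counting error can be given, and 3 libraries a group limit every comparison.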

Other observations

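Carriers and transporters gave further differences in the same comparison. Of 75 solute carriers tested, 54 were higher as deposited and 48 scaled, with a median log2 fold change of 0.46 (0.18 scaled), near that of all genes. As deposited 19 were apart above and 1 below, against 15.9% and 2.68% of all genes. After scaling these were 15 and 9, against 13.1% and 11.6%. Carriers apart above on both scales included *Slc22a5*, the carnitine importer, at 5.200, 3.81 and 3.69 FPKM in DOX and 7.295, 12.2 and 10.9 in DOX + K27. Another was *Slc25a13*, the aspartate-glutamate carrier, at 25.7, 20.1 and 10.7 against 38.8, 42.4 and 26.03 FPKM. *Slc25a25*, a carrier of ATP-Mg, was the one apart below, at 39.3, 37.1 and 31.96 against 22.6, 22.1 and 15.8 FPKM. Of 16 ABC transporters 11 were higher and 5 apart above as deposited, against the 15.9% of all genes. Among them was *Abcd2*, which brings very long chain acyl-CoA into peroxisomes, at 6.01, 3.27 and 1.37 against 10.3, 11.1 and 7.35 FPKM.

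Genes of the integrated and unfolded protein stress response were higher in 9 of 10, 6 of them apart as deposited and 5 scaled (median 0.60 and 0.32). Among all genes 15.9% and 13.1% were apart above. *Trib3*, a pseudokinase induced by ATF4, read 2.37, 1.26 and 0.717 FPKM in DOX and 4.701, 4.17 and 5.08 in DOX + K27. *Fgf21*, a liver hormone induced by fasting and by stress and also counted among the PPAR alpha targets, read 0.894, 0.619 and 0.365 against 1.04, 3.03 and 2.42 FPKM. None of the 10 genes passed the adjusted limma test (0 genes, 4 with an unadjusted p under 0.05, against 29.3% of all genes). In the acute phase list 15 of 17 were higher, and 4 were apart as deposited and 3 scaled. Those shares are near the 15.9% and 13.1% of all genes and are no result about the list. *Saa1*, a serum amyloid, read 13.7, 10.9 and 6.21 against 29.2, 20.1 and 20.1 FPKM.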
